A study of Mus musculus with 16 samples.

Results

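The mouse colon expresses enzymes that oxidize and conjugate bile pigments, steroids, dietary plant compounds and drugs. The genes described here are those of 4 enzyme superfamilies: cytochromes P450 (*Cyp*), UDP-glucuronosyltransferases (*Ugt1* and *Ugt2*), glutathione S-transferases (*Gsta*, *Gstm*, *Gstp*, *Gstt*, *Gsto* and *Gstk*) and cytosolic sulfotransferases (*Sult*). Members were taken by symbol alone, by a rule that uses no levels but was chosen with earlier results of these data known. This gave 113 of the 19574 genes in the count table: 66 P450, 14 UGT, 22 GST and 11 sulfotransferase genes. Of these, 5 are pseudogenes or an antisense transcript by their symbol. Of the 113, 86 passed the filter on low counts. The other 27 each had counts in at least 1 library but at most 80 in all 16 libraries together (*Ugt2b1*), so they could not be tested.

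RNA-seq was performed on whole colon tissue of male AOM/DSS-treated mice, with a tumor and an adjacent normal library from each mouse. The groups were Il23rΔTreg tumor and Il23rΔTreg adjacent normal (5 mice, genotype Il23rflflFoxp3YFP-Cre) and WT tumor and WT adjacent normal (3 mice, genotype Foxp3YFP-Cre). Both genotypes thus carry the Foxp3-driven Cre, which deletes *Il23r* in the mutant only in FOXP3+ regulatory T cells, so the epithelium keeps the gene. Every mouse received azoxymethane (AOM, a carcinogen, 10 mg/kg) and 3 cycles of 3.5% dextran sulfate sodium (DSS, which injures the colon epithelium) of 5 days, each followed by 16 days of recovery, starting at 7 to 8 weeks of age. No group went without AOM/DSS, so adjacent normal tissue is treated tissue. The labels place all WT mice in a cage that no Il23rΔTreg mouse shared, so effects of genotype and of cage cannot be told apart.

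Total counts per library ran from 34418067 to 60836474. The ribosomal RNA gene *Rn18s* took 0.343% to 9.45% of counts in Il23rΔTreg tumors and 6.62% to 29.7% in WT tumors. In adjacent normal tissue it took 0.661% to 9.10% in Il23rΔTreg mice and 2.39% to 19.4% in WT mice. Its range reached higher in WT mice in both tissues, but the ranges of the genotypes overlapped. The highest share was that of the tumor library of WT mouse2988. *Il23r* itself did not pass the filter: it had 0.0224 to 0.126 CPM in Il23rΔTreg tumors and 0 to 0.162 CPM in WT tumors, levels too low in whole tissue to check the labels. CPM here are counts per 1000000 of the library total after scaling by the trimmed mean of M values (TMM). Pan-epithelial markers did not mark the tumors off: of 10, none was called in Il23rΔTreg mice and *Krt18* alone rose in WT mice. Colonocyte, goblet cell and smooth muscle markers did fall in tumors, as given with the results they move with.

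P450 enzymes insert oxygen into a substrate with electrons from P450 reductase, often the first step of detoxification (phase I). Transferases then attach glucuronic acid, glutathione or sulfate (phase II), and export pumps move the conjugates out of the cell. Other P450 enzymes build or break down sterols, steroid hormones and vitamins. In the intestine many of these genes are set by ligand-activated receptors such as AHR, PXR (*Nr1i2*) and CAR (*Nr1i3*) and by epithelial factors such as HNF4A and CDX2, and their enzymes are found mostly in the mature absorptive cells of the surface.

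In both genotypes, tumors had lower levels of detoxification genes far more often than higher levels. Called members were those with an adjusted p under 0.05 in edgeR's quasi-likelihood test (Benjamini-Hochberg over all genes tested) and a log2 fold change beyond 1. In Il23rΔTreg mice 44 of 86 members fell (51.2%) and 7 rose (8.14%), against a background over 17122 genes of 16.1% lower and 9.53% higher. In WT mice 42 fell (48.8%) and 7 rose (8.14%), against a background of 12.9% lower and 12.1% higher. The median log2 fold change of the 86 members was -1.30 in Il23rΔTreg mice and -1.23 in WT mice, where the median over all genes was -0.00 and -0.01. These numbers describe the members that passed the filter, which a gene can do through its level in adjacent normal tissue alone. Among the 65 members with a mean of at least 1 CPM over all 16 libraries, 34 fell and 6 rose in each genotype. That mean includes the adjacent normal libraries, so the same limit holds for it. The share of all genes called at this cut was not computed. Since the tissue was whole, fewer cells of a type and less RNA per cell cannot be told apart.

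The calls were largely of the same genes. In both genotypes 38 members fell and 6 rose (*Cyp11a1*, *Cyp21a1*, *Cyp26a1*, *Cyp2b10*, *Gsta4* and *Gstm5*), and no member was called in opposite directions. Called in WT mice alone were *Cyp4f18* (higher) and *Cyp2f2*, *Cyp2u1*, *Cyp2w1* and *Ugt1a2* (lower). In Il23rΔTreg mice alone, *Gstm7* was called higher and *Cyp2c65*, *Cyp2d11*, *Cyp4f14*, *Gsto2*, *Gstt2* and *Ugt1a5* lower. Within mice, 43 of the 86 members were below their own adjacent normal level in the tumors of all 8 mice and 8 were above it in all 8 (50.0% and 9.30% of members, against 19.7% and 17.7% of all genes tested). The count in WT mice rested in part on mouse2990: without it 27 members fell. The 15 lost were *Cyp1a1*, *Cyp2a12*, *Cyp2c23*, *Cyp2c40*, *Cyp2c67*, *Cyp2d9*, *Cyp2d26*, *Cyp2f2*, *Cyp2u1*, *Cyp4b1*, *Sult1b1*, *Sult1c2*, *Sult4a1*, *Ugt1a2* and *Ugt1a6b*.

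**Figure D1:**
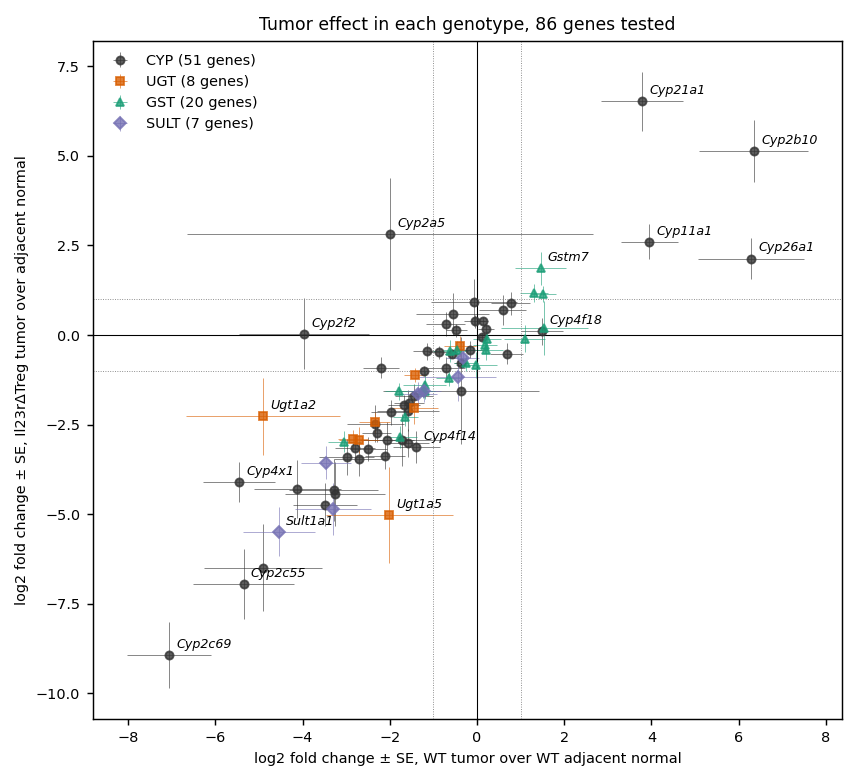
Log2 fold change of tumor over adjacent normal tissue for the 86 members tested, with Il23rΔTreg mice on the vertical and WT mice on the horizontal axis (bars, standard error; dotted lines, log2 fold changes of -1 and 1; symbols, enzyme superfamily). Most points lie in the lower left, 38 members being called lower in both genotypes and 6 higher in both; the fitted positions of *Cyp2c69* and *Cyp2a12* (vertical) and of *Cyp26a1* and *Cyp2a5* (horizontal) rest on a group without counts and are no measure of size.

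The counts of calls differed by subgroup. Of 40 tested P450 genes of the CYP1 to CYP4 families, which act mostly on foreign compounds and fatty acids, 25 fell in Il23rΔTreg mice and 25 in WT mice (median log2 fold change -2.13 and -1.84), and without mouse2990 the WT count was 15. The 11 tested P450 genes of families numbered above CYP4 act mostly in sterol, steroid and vitamin metabolism. None of them fell and 3 rose in each genotype by edgeR's test with the fold limit. *Cyp39a1* in both genotypes and *Cyp46a1* in Il23rΔTreg mice were lower at an adjusted p under 0.05 (edgeR) but inside that limit. *Cyp39a1* was called lower in WT mice without mouse2989, and *Cyp46a1* in Il23rΔTreg mice without mouse2903. The count that rose was 2 in both genotypes without mouse2901 or mouse2903, and 2 in WT mice without mouse2990. Of the 11, 5 had an unadjusted p under 0.05 in Il23rΔTreg mice and 4 in WT mice (53.2% and 48.8% of all genes did). Among UGT genes, 6 of 8 tested fell in each genotype, with 4 left in WT mice when any WT mouse was left out. Among sulfotransferases it was 5 of 7 in each, with 2 left in WT mice without mouse2990 and 3 without mouse2988. Of 20 GST genes tested, 8 fell and 3 rose in Il23rΔTreg mice (40.0% and 15.0%, against 16.1% and 9.53% of all genes). In WT mice 6 fell and 2 rose (30.0% and 10.0%, against 12.9% and 12.1% of all genes). The shares that rose were thus near those of all genes. The 3 Gstp genes were not called in either.

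*Cyp2c55*, which hydroxylates arachidonic acid in the mouse and is a gene of the colon, had among the largest falls. In Il23rΔTreg mice it had 0.239, 1.22, 7.37, 2.60 and 0.157 CPM in the tumors of mouse2901, mouse2902, mouse2903, mouse2904 and mouse3883, against 213, 230, 442, 385 and 154 CPM in their adjacent normal tissue. In WT mice it had 1.68, 19.8 and 8.61 CPM in the tumors of mouse2988, mouse2989 and mouse2990, against 294, 332 and 614 CPM in adjacent normal tissue. Every tumor was far below every adjacent normal sample, while the tumors differed widely among themselves. The log2 fold change was -6.94 (standard error, SE, 0.98, adjusted p = 4.5e-05, edgeR) in Il23rΔTreg mice and -5.35 (SE 1.16, adjusted p = 0.0025, edgeR) in WT mice. *Cyp2c69*, a gene of the same family, had no count in any of the 5 Il23rΔTreg tumors, against 0.539, 1.59, 1.83, 1.74 and 0.505 CPM in their adjacent normal tissue. Set against a limit of 3 counts over the 5 tumors (0.0112 CPM), it was at least 110-fold lower in Il23rΔTreg tumors. In WT mice *Cyp2c69* had 0, 0.0162 and 0.0294 CPM in tumors, against 1.19, 2.05 and 4.52 CPM in adjacent normal tissue. *Cyp2c68*, *Cyp2c67*, *Cyp2c40* and *Cyp2c23* fell in both genotypes, with log2 fold changes from -4.74 to -3.01 in Il23rΔTreg mice, although the WT calls of all but *Cyp2c68* were lost without mouse2990. Several Cyp2c genes are close copies of each other, so the split of reads between them is uncertain.

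The Cyp2d genes, mouse relatives of the human drug-metabolizing enzyme CYP2D6, fell together. Of 8 tested on chromosome 15, all 8 were called lower in Il23rΔTreg mice and 7 in WT mice (not *Cyp2d11*), or 5 without mouse2990, when *Cyp2d9* and *Cyp2d26* were no longer called. *Cyp2d10* had 2.22, 7.72, 7.20, 6.65 and 3.52 CPM in Il23rΔTreg tumors, against 53.4, 70.0, 37.7, 82.2 and 39.4 CPM in adjacent normal tissue. It had 11.2, 18.5 and 9.34 CPM in WT tumors, against 66.4, 66.5 and 36.3 CPM in adjacent normal tissue. The tumor and adjacent normal values did not overlap in either genotype, with a log2 fold change of -3.37 (SE 0.36, adjusted p = 4.4e-06, edgeR) in Il23rΔTreg mice and -2.11 (SE 0.45, adjusted p = 0.0020, edgeR) in WT mice. *Cyp2d22* had log2 fold changes of -2.72 in Il23rΔTreg mice and -2.30 in WT mice, and *Cyp2d34* of -2.15 and -1.98 in the same order. Reads may again be shared among these near copies, which can also give them a common direction, so they are not separate observations.

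*Cyp3a13*, an intestinal member of the family that metabolizes many drugs, and *Cyp2s1*, a P450 of epithelia outside the liver, also fell in both genotypes. *Cyp3a13* had 3.27, 5.75, 8.98, 10.7 and 4.64 CPM in Il23rΔTreg tumors, against 37.8, 71.5, 63.7, 54.0 and 71.5 CPM in adjacent normal tissue. It had 6.81, 22.7 and 8.73 CPM in WT tumors, against 89.2, 78.6 and 101 CPM in adjacent normal tissue. All tumors were again below all adjacent normal samples, with a log2 fold change of -3.16 in Il23rΔTreg mice and -2.80 in WT mice (SEs 0.36 and 0.46). For *Cyp2s1* the log2 fold changes were -3.18 in Il23rΔTreg mice and -2.49 in WT mice (SEs 0.33 and 0.42). *Cyp4x1* fell by 4.10 on the log2 scale in Il23rΔTreg mice and by 5.46 in WT mice, and had at most 1.17 CPM in a library.

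**Figure D2:**
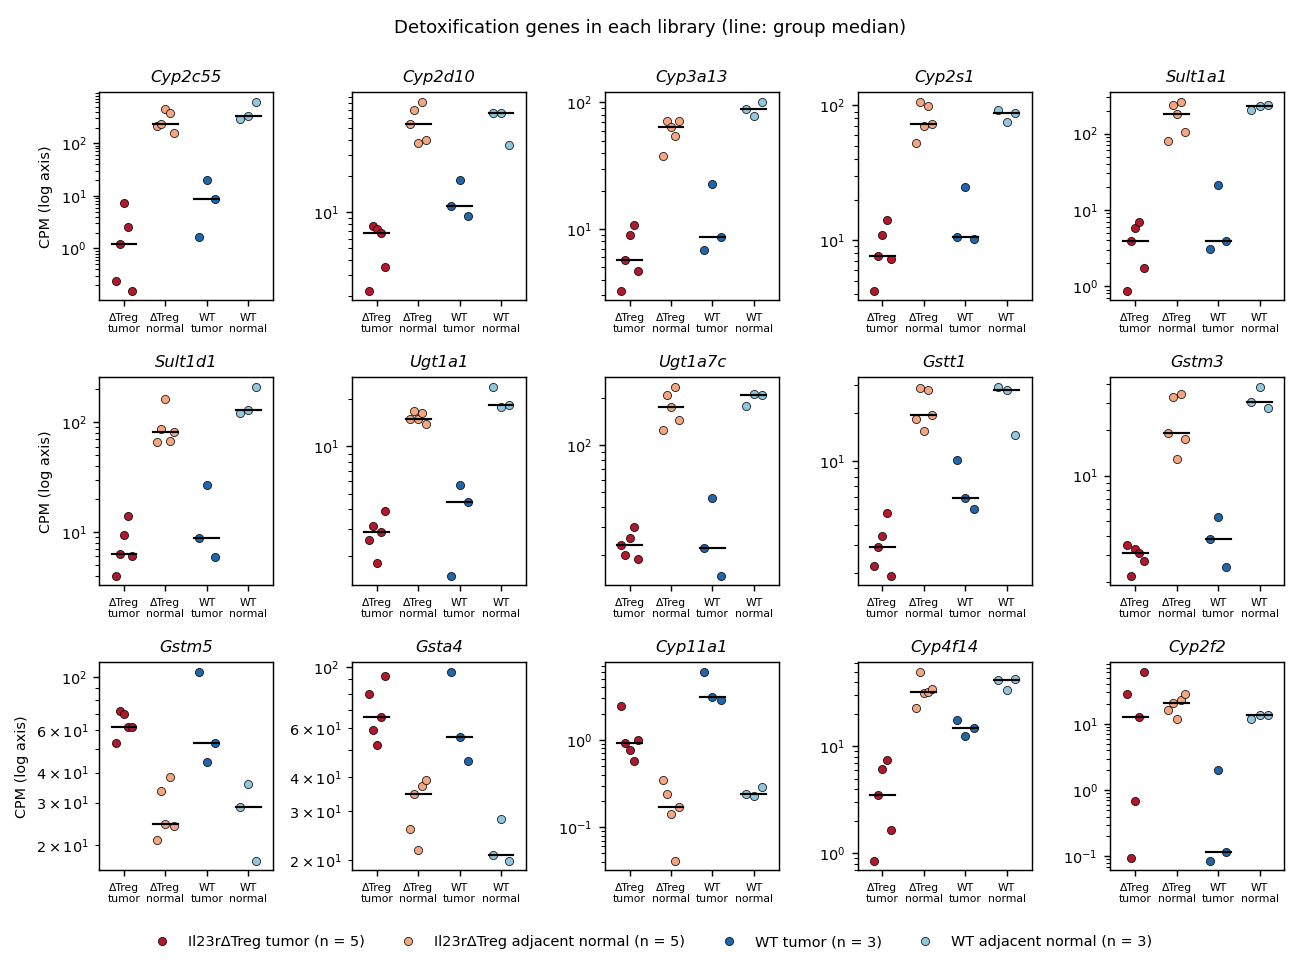
CPM (log axis, its own range in each panel) of 15 members in every library, by group; points are mice and lines are group medians. The first 10 members are lower in the tumors of both genotypes, *Gstm5*, *Gsta4* and *Cyp11a1* are higher, and *Cyp4f14* and *Cyp2f2* differ in how they vary between tumors.

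Sulfotransferases attach sulfate to phenols, catecholamines and hormones. *Sult1a1*, the main phenol sulfotransferase, had 0.870, 3.87, 5.71, 6.96 and 1.73 CPM in Il23rΔTreg tumors, against 80.4, 234, 178, 260 and 105 CPM in adjacent normal tissue. It had 3.02, 21.4 and 3.91 CPM in WT tumors, against 204, 231 and 237 CPM in adjacent normal tissue. No tumor reached the lowest adjacent normal value, and the log2 fold change was -5.49 (SE 0.68, adjusted p = 1.5e-05, edgeR) in Il23rΔTreg mice and -4.54 (SE 0.83, adjusted p = 7.8e-04, edgeR) in WT mice. *Sult1d1*, which sulfates catecholamines in the mouse, fell by 3.56 on the log2 scale in Il23rΔTreg mice and by 3.46 in WT mice. *Sult1c2* had log2 fold changes of -4.85 and -3.30 in the same order and *Sult1b1* of -1.57 and -1.22. The WT calls of these last genes were lost without mouse2988 (adjusted p = 0.054 for *Sult1c2* and 0.092 for *Sult1b1*, edgeR) or without mouse2990 (adjusted p = 0.070 and 0.14, edgeR). *Sult4a1*, a sulfotransferase best known from the brain, fell by 1.65 on the log2 scale in Il23rΔTreg mice and by 1.35 in WT mice, and the WT call was lost without mouse2989 or mouse2990. *Sult2b1*, which sulfates cholesterol, and *Sult5a1* were not called.

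The Ugt1a genes share their last exons and differ in the first, so counts of the single genes rest on how reads of the shared part were divided. *Ugt1a1*, the enzyme that conjugates bilirubin, had 2.56, 3.14, 1.81, 2.84 and 3.90 CPM in Il23rΔTreg tumors, against 15.0, 16.9, 14.9, 16.4 and 13.9 CPM in adjacent normal tissue. It had 1.51, 5.69 and 4.41 CPM in WT tumors, against 23.9, 17.7 and 18.3 CPM in adjacent normal tissue. The groups did not overlap, and adjacent normal samples of 1 genotype lay close together. The log2 fold change of *Ugt1a1* was -2.44 (SE 0.28) in Il23rΔTreg mice and -2.35 (SE 0.36) in WT mice. *Ugt1a7c* had log2 fold changes of -2.91 and -2.84, *Ugt1a6a*, which acts on phenols, of -2.92 and -2.71, and *Ugt1a6b* of -2.04 and -1.44, each given for Il23rΔTreg mice before WT mice. The WT call of *Ugt1a6b* was lost when mouse2901, mouse3883 or any WT mouse was left out. *Ugt1a2* was low and uneven, with at most 2.25 CPM in a library. Its WT call was lost when any WT mouse was left out, with adjusted p from 0.097 to 0.13 (edgeR). *Ugt2b34*, of the other UGT family, fell by 1.11 on the log2 scale in Il23rΔTreg mice and by 1.42 in WT mice, while *Ugt2b35* was not called.

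Glutathione S-transferases couple glutathione to reactive compounds, and their mu class showed both directions within a single row of genes. The 7 Gstm genes lie next to each other on chromosome 3, in the order *Gstm5*, *Gstm7*, *Gstm6*, *Gstm3*, *Gstm2*, *Gstm1* and *Gstm4* in RefSeq. *Gstm3* had 3.48, 2.19, 3.30, 3.10 and 2.73 CPM in Il23rΔTreg tumors, against 19.1, 33.0, 12.9, 34.3 and 17.5 CPM in adjacent normal tissue. It had 3.84, 5.35 and 2.50 CPM in WT tumors, against 30.6, 38.4 and 27.9 CPM in adjacent normal tissue. Tumor values were low and close together for *Gstm3*. *Gstm2* fell by 2.30 on the log2 scale in Il23rΔTreg mice and by 1.64 in WT mice, and *Gstm1* had log2 fold changes of -1.57 and -1.78. At the other end of the row, *Gstm5* had 53.3, 72.4, 70.4, 62.0 and 61.9 CPM in Il23rΔTreg tumors, against 21.0, 33.6, 24.5, 38.4 and 24.0 CPM in adjacent normal tissue. It had 105, 44.4 and 53.0 CPM in WT tumors, against 28.7, 35.7 and 17.2 CPM in adjacent normal tissue. *Gstm5* was higher in every tumor than in every adjacent normal sample, with log2 fold changes of 1.18 (SE 0.25, adjusted p = 0.0011, edgeR) in Il23rΔTreg mice and 1.31 (SE 0.32, adjusted p = 0.0050, edgeR) in WT mice. The high value of 105 CPM is from WT mouse2988, without whose tumor library the WT value was 0.88 and no longer past the fold limit. *Gstm7* rose in Il23rΔTreg mice (log2 fold change 1.86, SE 0.46, adjusted p = 0.0037, edgeR), where its tumors were uneven, with 7.03, 60.6, 65.1, 26.8 and 16.2 CPM against 7.80, 13.1, 8.11, 11.8 and 7.67 CPM in adjacent normal tissue. In WT mice *Gstm7* had 20.2, 19.9 and 37.1 CPM in tumors, against 8.51, 11.4 and 8.12 CPM in adjacent normal tissue (log2 fold change 1.46, adjusted p = 0.060, edgeR). *Gstm6* and *Gstm4* were called in neither genotype. The mu-class genes are close copies, and a shift of reads between them was not tested.

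**Figure D3:**
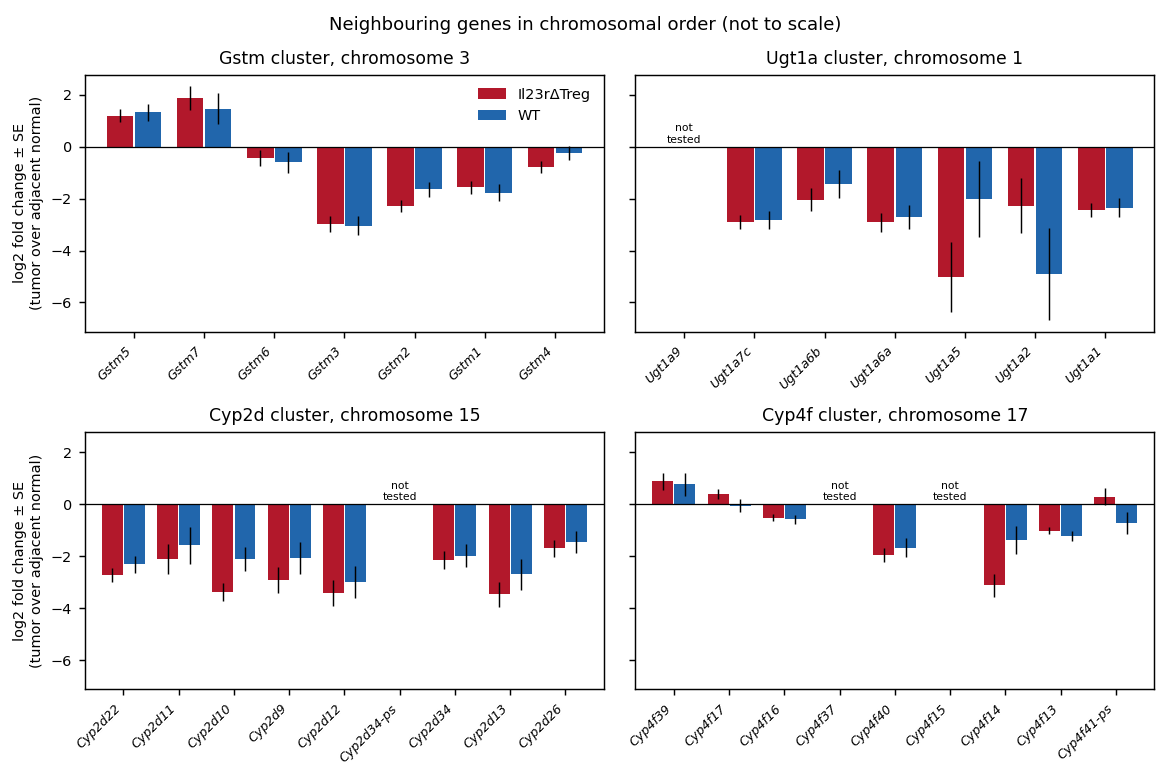
Log2 fold change of tumor over adjacent normal tissue (bars, with standard errors) for neighbouring members in the order in which RefSeq places them, Il23rΔTreg mice left and WT mice right of each gene; distances are not drawn and genes under the count filter are marked as not tested. The Ugt1a and Cyp2d rows point down throughout, whereas *Gstm5* and *Gstm7* point up and *Gstm3*, *Gstm2* and *Gstm1* down within the Gstm row, and the Cyp4f row is mixed.

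Promoters of 4 members are printed because these genes moved in opposite directions: *Gstm3* and *Gstm5* as neighbours, *Cyp2c55* among the strongest falls and *Cyp2b10* among the strongest rises. Each is the 250 bases before the RefSeq transcription start on GRCm38.p6, read 5′ to 3′ on the gene's strand. Capitals mark matches to 3 short motifs on either strand: the core GCGTG bound by the AHR complex, the antioxidant response element TGACNNNGC bound by NRF2, and TTTATNG, bound by CDX2. *Cyp2c55* is at chr19:39006769-39007018 (plus strand), *Cyp2b10* at chr7:25897408-25897657 (plus strand), *Gstm3* at chr3:107969175-107969424 (minus strand) and *Gstm5* at chr3:107895604-107895853 (plus strand).
Cyp2c55: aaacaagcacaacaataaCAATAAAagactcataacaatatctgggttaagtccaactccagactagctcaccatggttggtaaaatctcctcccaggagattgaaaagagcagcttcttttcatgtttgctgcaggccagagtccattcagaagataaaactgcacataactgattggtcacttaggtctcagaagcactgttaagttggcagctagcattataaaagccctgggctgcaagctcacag
Cyp2b10: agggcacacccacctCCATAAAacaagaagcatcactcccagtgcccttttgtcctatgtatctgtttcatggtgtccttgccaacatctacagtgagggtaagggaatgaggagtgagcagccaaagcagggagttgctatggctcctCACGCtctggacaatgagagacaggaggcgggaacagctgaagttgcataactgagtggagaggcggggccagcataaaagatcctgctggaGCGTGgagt
Gstm3: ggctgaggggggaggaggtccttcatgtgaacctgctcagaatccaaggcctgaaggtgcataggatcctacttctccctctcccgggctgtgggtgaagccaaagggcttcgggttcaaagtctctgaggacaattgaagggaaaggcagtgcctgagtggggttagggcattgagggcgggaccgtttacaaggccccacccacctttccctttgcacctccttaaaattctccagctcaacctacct
Gstm5: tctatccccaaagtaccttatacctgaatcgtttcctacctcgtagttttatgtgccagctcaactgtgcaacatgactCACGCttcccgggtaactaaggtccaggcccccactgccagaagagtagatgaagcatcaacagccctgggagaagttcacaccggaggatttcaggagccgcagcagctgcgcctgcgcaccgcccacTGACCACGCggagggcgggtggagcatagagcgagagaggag
The *Cyp2c55* window holds 1 CDX2 match that starts 232 bases before the start site. In *Cyp2b10* there are 2 AHR cores, at 101 and 9 bases, and 1 CDX2 match at 235 bases. *Gstm5* holds an antioxidant response element 42 bases before its start, which overlaps an AHR core on the other strand, and another AHR core at 171 bases, while the *Gstm3* window holds none of the 3 motifs. Over all 32851 promoters of this length in the RefSeq table, 28.2% held an AHR core, 10.2% the antioxidant element and 9.81% the CDX2 motif. RefSeq promoters were matched for 92 of the 113 members. Among the members lower in both genotypes, 30 of 38 had a promoter in the table, 34 promoters in all, of which 20.6% held an AHR core, none the antioxidant element and 11.8% the CDX2 motif. A match says only that the letters are there.

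Other GST classes differed from each other. *Gstt1*, of the theta class, had 2.22, 2.90, 3.42, 4.74 and 1.93 CPM in Il23rΔTreg tumors, against 18.4, 28.6, 15.3, 27.7 and 19.5 CPM in adjacent normal tissue. It had 10.2, 5.91 and 5.02 CPM in WT tumors, against 29.0, 27.6 and 14.6 CPM in adjacent normal tissue. *Gstt1* fell by 2.85 on the log2 scale in Il23rΔTreg mice and by 1.76 in WT mice, and *Gstt3* by 1.56 and 1.19. *Gstk1*, of mitochondria and peroxisomes, fell by 1.55 in Il23rΔTreg mice and by 1.23 in WT mice. *Gsta4*, which clears the lipid peroxidation product 4-hydroxynonenal, went the other way, with 79.7, 59.1, 52.2, 65.6 and 92.4 CPM in Il23rΔTreg tumors, against 25.9, 34.7, 21.8, 37.2 and 39.1 CPM in adjacent normal tissue. It had 95.9, 55.8 and 45.8 CPM in WT tumors, against 20.8, 28.2 and 19.9 CPM in adjacent normal tissue. Here all tumors lay above all adjacent normal samples, with log2 fold changes of 1.14 (SE 0.22) in Il23rΔTreg mice and 1.52 (SE 0.29) in WT mice. *Gstp1* and *Gsto1*, the GST genes with the most counts in these libraries, were not called. *Gstp1* had 133, 140, 112, 123 and 130 CPM in Il23rΔTreg tumors, against 173, 208, 106, 246 and 118 CPM in adjacent normal tissue, and 340, 133 and 140 CPM in WT tumors, against 191, 235 and 103 CPM in adjacent normal tissue. The WT tumor value of 340 CPM is again from mouse2988, and *Gstp1* and *Gstp2* are near copies.

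The P450 genes called higher in both genotypes were *Cyp2b10*, *Cyp21a1*, *Cyp26a1* and *Cyp11a1*. *Cyp2b10*, the classic target of CAR in mouse liver, had 7.69, 11.1, 11.2, 7.82 and 7.15 CPM in Il23rΔTreg tumors, against 0.0216, 0.0561, 0.892, 0 and 0.286 CPM in adjacent normal tissue. It had 7.55, 3.31 and 10.3 CPM in WT tumors, against 0.0269, 0.225 and 0 CPM in adjacent normal tissue. Adjacent normal tissue was close to undetected and every tumor was above it, with log2 fold changes of 5.14 (SE 0.86, adjusted p = 1.8e-04, edgeR) in Il23rΔTreg mice and 6.35 (SE 1.25, adjusted p = 0.0012, edgeR) in WT mice. *Cyp21a1*, the steroid 21-hydroxylase, had 8.06, 6.12, 8.57, 5.10 and 3.16 CPM in Il23rΔTreg tumors, against 0.151, 0.0187, 0, 0 and 0.151 CPM in adjacent normal tissue. It had 3.62, 0.970 and 3.00 CPM in WT tumors, against 0.431, 0.113 and 0.0195 CPM in adjacent normal tissue. Both genotypes were again separated by tissue, with log2 fold changes of 6.52 in Il23rΔTreg mice and 3.79 in WT mice (SEs 0.83 and 0.94). The WT call of *Cyp21a1* was lost without mouse2990 (adjusted p = 0.050, edgeR), and its pseudogene *Cyp21a2-ps* is a near copy that did not pass the filter. *Cyp26a1*, which degrades retinoic acid, had 0.379, 0.133, 0.254, 0.0477 and 0.157 CPM in Il23rΔTreg tumors, against 0.0862, 0.0374, 0.0406, 0.0413 and 0.0168 CPM in adjacent normal tissue. It had 0.259, 0.194 and 0.147 CPM in WT tumors and no count in WT adjacent normal tissue, at least 8.8-fold higher against a limit of 3 counts over the 3 adjacent normal libraries. *Cyp26a1* thus passed the test at very low levels.

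*Cyp11a1*, which cuts the cholesterol side chain in the first step of steroid synthesis, had 2.46, 0.934, 0.762, 0.572 and 0.986 CPM in Il23rΔTreg tumors, against 0.345, 0.243, 0.142, 0.0413 and 0.168 CPM in adjacent normal tissue. It had 6.04, 3.07 and 2.85 CPM in WT tumors, against 0.242, 0.225 and 0.292 CPM in adjacent normal tissue. All tumors were above all adjacent normal samples, with a log2 fold change of 2.60 (SE 0.49) in Il23rΔTreg mice and 3.95 (SE 0.65) in WT mice. Of 5 markers of steroid-producing cells, 3 were in the table and only *Star* passed the filter; their summed level was 1.08 to 1.34 CPM in Il23rΔTreg tumors, against 0.878 to 1.58 CPM in adjacent normal tissue, and 0.999 to 1.28 CPM in WT tumors, against 1.06 to 1.54 CPM in adjacent normal tissue. Of 6 mast cell markers, 5 rose and *Kit* fell in both genotypes. Their summed level was 424, 57.0, 61.5, 25.0 and 85.3 CPM in Il23rΔTreg tumors and 1410, 387 and 349 CPM in WT tumors, so the tumors of mouse2901 and mouse2988 were highest in both measures. In adjacent normal tissue the sum was 49.7 to 68.0 CPM in Il23rΔTreg mice and 47.1 to 65.6 CPM in WT mice. In mouse2902, mouse2903 and mouse2904 the tumor sum was below that of their adjacent normal tissue (68.0, 67.8 and 49.7 CPM), although *Cyp11a1* was above. In mouse2901, mouse3883 and the WT mice both were above. The sum includes *Kit*, which fell, while the median log2 fold change of the 6 markers was 2.07 in Il23rΔTreg mice. A sum without *Kit* was not computed, so a lower sum need not mean fewer mast cells. The part of mast cells in the *Cyp11a1* result was not tested. *Cyp51*, which demethylates lanosterol in cholesterol synthesis, had 165, 180, 213, 179 and 194 CPM in Il23rΔTreg tumors, against 142, 129, 179, 154 and 229 CPM in adjacent normal tissue. It had 157, 162 and 137 CPM in WT tumors, against 115, 127 and 153 CPM in adjacent normal tissue. The groups overlapped, and *Cyp51* was called in neither genotype.

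Tumors differed in how low these genes were. Among the 44 members called lower in Il23rΔTreg mice, the tumor of mouse2901 had the lowest level of the 5 for 22 and the tumor of mouse2904 the highest for 22. Among the 42 called lower in WT mice, the tumor of mouse2989 was the highest of the 3 for 30, while the lowest was that of mouse2988 for 18 and that of mouse2990 for 17. The summed level of 10 colonocyte markers was 487, 1530, 1790, 1610 and 948 CPM in Il23rΔTreg tumors, against 5260, 7060, 5930, 9220 and 7820 CPM in adjacent normal tissue. It was 1560, 2850 and 2220 CPM in WT tumors, against 12100, 10100 and 12700 CPM in adjacent normal tissue. Of these markers, 6 of 10 fell in both genotypes and *Slc9a3* rose in Il23rΔTreg mice. The summed level of 8 goblet cell markers was 2010, 2290, 2360, 3930 and 2220 CPM in Il23rΔTreg tumors and 3500, 4490 and 2460 CPM in WT tumors. In all 3 marker sums, smooth muscle included, the tumor of mouse2901 was the lowest of the Il23rΔTreg tumors and that of mouse2989 the highest of the WT tumors. The tumor of mouse2904 was the highest Il23rΔTreg tumor in goblet cell (3930 CPM) and smooth muscle (1730 CPM) markers but not in colonocyte markers, where mouse2903 was. The sum of 10 pan-epithelial markers was 9450 to 10800 CPM in Il23rΔTreg tumors, against 10000 to 17000 CPM in adjacent normal tissue, and 9130 to 18200 CPM in WT tumors, against 9760 to 15400 CPM in adjacent normal tissue. Goblet cell markers fell too (7 of 8 in Il23rΔTreg mice and 5 of 8 in WT mice), as did all 10 smooth muscle markers in both genotypes, whose sum was 286 to 1730 CPM in Il23rΔTreg tumors, against 7560 to 11100 CPM in adjacent normal tissue, and 657 to 952 CPM in WT tumors, against 7010 to 8810 CPM in adjacent normal tissue. The part of colonocytes, goblet cells and smooth muscle in the lower levels of detoxification genes was not tested.

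Regulators of these genes were examined as a list of 20 sensors and transcription factors. Of these, 10 fell in Il23rΔTreg mice and 12 in WT mice, and none rose. *Nr1i2*, which encodes the xenobiotic receptor PXR, had 19.9, 32.8, 28.7, 38.4 and 21.0 CPM in Il23rΔTreg tumors, against 53.4, 97.3, 78.9, 101 and 70.4 CPM in adjacent normal tissue. It had 30.0, 36.7 and 24.4 CPM in WT tumors, against 74.1, 89.8 and 88.0 CPM in adjacent normal tissue. The groups did not overlap, with log2 fold changes of -1.51 (SE 0.21) in Il23rΔTreg mice and -1.47 (SE 0.27) in WT mice. *Nr1i3*, which encodes CAR, fell with log2 fold changes of -1.77 in Il23rΔTreg mice and -1.85 in WT mice, in the same tumors in which *Cyp2b10* rose. *Hnf4a*, a regulator of the mature epithelium, had log2 fold changes of -1.10 and -1.37, and *Cdx1*, an intestinal homeobox factor, of -1.57 and -1.21, in the same order of genotypes. *Ahr* was not called (log2 fold change 0.62 in Il23rΔTreg mice and 0.26 in WT mice), whereas of *Ahrr*, *Cyp1a1* and *Cyp1b1*, genes among those AHR induces, 2 fell: the repressor *Ahrr* (log2 fold changes -2.23 and -1.42) and *Cyp1a1* (-4.43 and -3.26), with *Cyp1a1* under 1 CPM in every library. The WT call of *Cyp1a1* was lost without mouse2990, mouse2988, the tumor library of mouse2988 alone, or mouse3883, an Il23rΔTreg mouse. The tumor level of *Cyp1a1* was below adjacent normal tissue in 5 of 5 Il23rΔTreg and 2 of 3 WT mice. *Cyp1b1* was not called (log2 fold change 0.91 in Il23rΔTreg mice, above its own adjacent normal level in 5 of 5 tumors, and -0.07 in WT mice). *Nfe2l2*, which encodes NRF2, was not called.

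Partners of the transferases moved in both directions. Of 10 genes of glutathione synthesis and reduction, 4 rose in both genotypes (*Gsr*, *Slc7a11*, *Chac1* and *Gpx2*) and none fell. *Slc7a11*, the cystine importer that feeds glutathione synthesis, had log2 fold changes of 2.74 (SE 0.40) in Il23rΔTreg mice and 3.14 (SE 0.52) in WT mice. Of 9 genes that supply UDP-glucuronate and the sulfate donor PAPS, *Ugdh*, which makes UDP-glucuronate, and *Slc26a2*, a sulfate transporter, fell in both genotypes. *Slc26a2* fell by 3.01 on the log2 scale in Il23rΔTreg mice and by 3.68 in WT mice. *Papss2*, a PAPS synthase, fell in WT mice, and *Slc26a1* rose in Il23rΔTreg mice. Among 9 genes of electron supply and heme, *Hmox1*, which degrades heme, was the only call, and *Por*, the P450 reductase, was not called. Of 6 oxidoreductases that NRF2 induces, the calls were *Txnrd1*, which rose, and *Akr1c13*, which fell, both in Il23rΔTreg mice.

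Export pumps split as well. Of 7, *Abcb1a*, *Abcc3* and *Abcg2* fell and *Abcc2* and *Abcc4* rose in both genotypes, and *Abcc1* rose in Il23rΔTreg mice. *Abcc2*, which exports glucuronide and glutathione conjugates, had 36.2, 102, 169, 58.0 and 55.5 CPM in Il23rΔTreg tumors, against 1.60, 2.92, 11.3, 4.01 and 6.00 CPM in adjacent normal tissue. It had 34.7, 64.6 and 137 CPM in WT tumors, against 4.61, 3.92 and 7.36 CPM in adjacent normal tissue. *Abcc2* was above its adjacent normal range in every tumor, with log2 fold changes of 4.03 (SE 0.58) in Il23rΔTreg mice and 3.89 (SE 0.74) in WT mice. *Abcb1a*, a P-glycoprotein gene, fell by 3.55 on the log2 scale in Il23rΔTreg mice and by 3.93 in WT mice. Of 19 other phase I and conjugating enzymes tested, 10 fell in Il23rΔTreg mice and 9 in WT mice, among them the carboxylesterases *Ces2a* (log2 fold change -4.86 in Il23rΔTreg mice and -4.21 in WT mice) and *Ces2c* (-3.68 and -3.34), and *Ces1g* was the only one to rise. No gene of these partner lists was called between Il23rΔTreg and WT tumors.

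**Figure D4:**
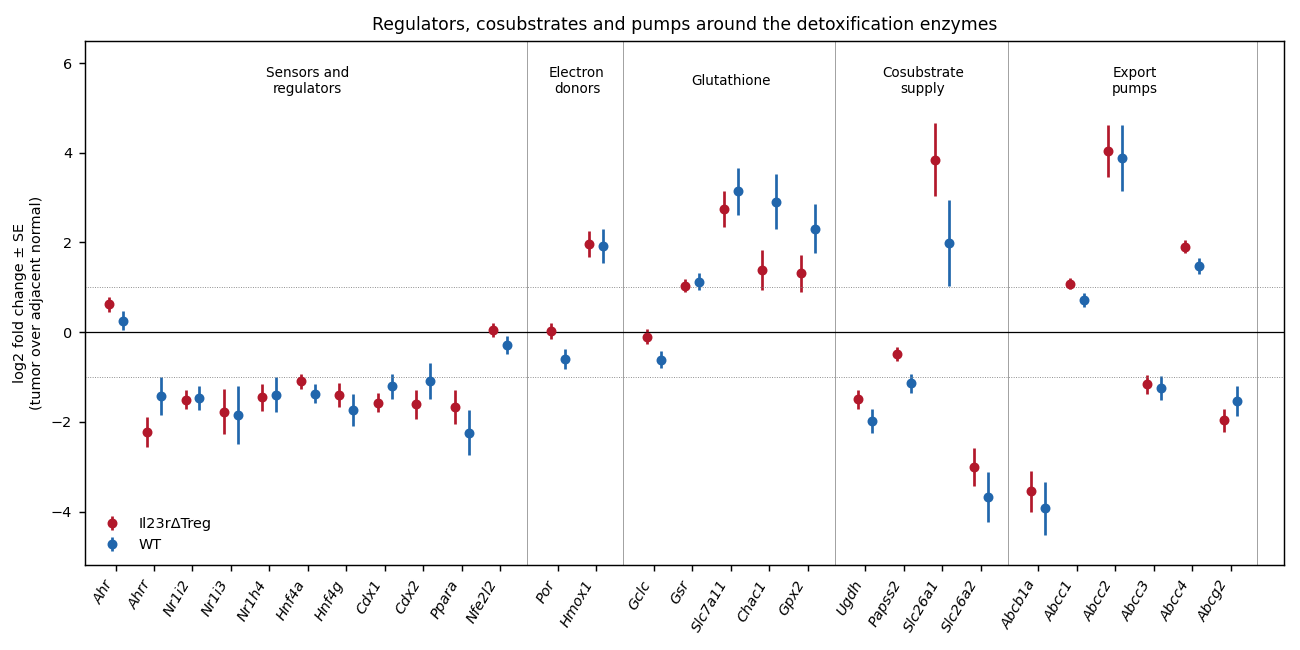
Log2 fold change of tumor over adjacent normal tissue (points, with standard errors) for selected genes around the detoxification enzymes, Il23rΔTreg mice left and WT mice right of each gene; dotted lines are log2 fold changes of -1 and 1. The receptors and epithelial factors lie below 0 apart from *Ahr* and *Nfe2l2*, *Gsr*, *Slc7a11*, *Chac1* and *Gpx2* lie above it, and export pumps lie on both sides.

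Genotype was compared within each tissue. Between Il23rΔTreg and WT tumors, 1 of 86 members (1.16%) was called lower and none higher by edgeR's quasi-likelihood test. The background over all genes was 1.58% lower and 0.146% higher. Without adjustment, 23 of the 86 members had a p under 0.05 (edgeR) and were lower in Il23rΔTreg tumors, and 6 of the 86 were higher. Of all genes, 11.7% were lower and 8.63% higher in this way. DESeq2 called 5 lower (*Cyp11a1*, *Cyp2c23*, *Cyp2d10*, *Cyp4f14* and *Gstt1*) and 2 higher (*Cyp2f2* and *Cyp2w1*). The median log2 difference of the 86 members was -0.51, and 0.01 over all genes. The colonocyte markers *Car4* and *Aqp8* were called lower in Il23rΔTreg than in WT tumors too, and the part of colonocytes was not tested. Without *Rn18s* in the counts *Cyp4f14* was still the only call (adjusted p = 0.047, edgeR). In adjacent normal tissue no member was called by edgeR, DESeq2 or limma. There, 4 of the 86 members had an unadjusted p under 0.05 (edgeR), against 4.16% of all genes. No member's tumor effect was called different between genotypes by edgeR, DESeq2 or limma. For that difference, 11 of the 86 members had an unadjusted p under 0.05 (edgeR), against 13.9% of all genes.

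The call was *Cyp4f14*, a P450 that hydroxylates fatty acids and leukotriene B4. It had 0.856, 3.49, 6.20, 7.44 and 1.66 CPM in Il23rΔTreg tumors, against 17.7, 12.6 and 15.0 CPM in WT tumors. In adjacent normal tissue it had 22.9, 49.7, 31.7, 31.9 and 34.2 CPM in Il23rΔTreg mice, against 41.9, 33.4 and 42.9 CPM in WT mice. The tumor groups did not overlap and the adjacent normal groups did. The log2 fold change between tumors was -1.94 (SE 0.47, adjusted p = 0.046, edgeR), and between adjacent normal samples -0.21 (SE 0.47, adjusted p = 0.99, edgeR). The test of the difference in tumor effect gave -1.73 (SE 0.68, adjusted p = 0.30, edgeR). The call is close to its threshold: over the alternatives the adjusted p ran from 0.0027 to 0.19, and it was lost without mouse2902, mouse2903, mouse3883, mouse2988, mouse2989 or mouse2990, with adjusted p from 0.070 to 0.19 (edgeR), and when only the groups compared were fitted (adjusted p = 0.14, edgeR), where *Cyp4f18* was called instead.

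Other members were not called in the fit of all groups by edgeR. The smallest adjusted p among them were those of *Cyp2c23* (0.062), *Gstt1* (0.065) and *Cyp11a1* (0.071, all edgeR), which were lower in Il23rΔTreg tumors. Described next are *Cyp4f18*, called by edgeR on only the compared groups, and *Cyp2w1* and *Cyp2f2*, called by DESeq2. Tumor groups of further members did not overlap either, and the share of all genes without overlap was not counted. *Cyp4f18*, which in mouse neutrophils hydroxylates leukotriene B4, had 5.94, 10.1, 8.32, 6.10 and 5.67 CPM in Il23rΔTreg tumors, against 21.7, 14.3 and 15.5 CPM in WT tumors (log2 fold change -1.24, adjusted p = 0.13, edgeR). Its tumor groups did not overlap. It rose over adjacent normal tissue in WT mice (log2 fold change 1.49, adjusted p = 0.026, edgeR), a call lost without mouse2989 or mouse2990 or the tumor library of mouse2988. The 6 neutrophil markers rose in both genotypes, with a summed level of 146 to 635 CPM in Il23rΔTreg tumors and 195 to 268 CPM in WT tumors, and their part in *Cyp4f18* was not tested. *Cyp2w1*, a P450 of the fetal gut and of human colorectal tumors, had 2.19, 1.52, 2.02, 3.00 and 1.39 CPM in Il23rΔTreg tumors, against 0.647, 1.12 and 0.588 CPM in WT tumors (log2 fold change 1.34, adjusted p = 0.072, edgeR). These groups did not overlap either. *Cyp2w1* fell in WT mice relative to adjacent normal tissue (log2 fold change -2.20, adjusted p = 8.2e-04, edgeR), while in Il23rΔTreg mice it had -0.91, inside the fold limit. *Cyp2f2*, known from the club cells of the mouse airway, was uneven among tumors: Il23rΔTreg tumors had 27.9, 0.0953, 0.677, 12.8 and 61.2 CPM, against 0.0863, 2.05 and 0.118 CPM in WT tumors. Adjacent normal tissue held 16.2, 20.8, 12.0, 22.8 and 28.5 CPM in Il23rΔTreg mice, against 11.9, 13.6 and 13.8 CPM in WT mice. The tumors of mouse2901, mouse2904 and mouse3883 lay within or above the range of Il23rΔTreg adjacent normal tissue, and the other Il23rΔTreg tumors and all WT tumors below it. The tumor difference was 4.60 on the log2 scale (SE 1.48, adjusted p = 0.11, edgeR).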

How the data were processed

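RNA-seq was performed on polyA-selected RNA. The authors trimmed reads with fastp (0.20.0), quantified them with Salmon (1.4.0) and deposited estimated counts per gene, which were rounded to whole numbers here; 64 columns of the deposited tables match no sample and were not used. Deposited columns with the authors' own fold changes and p-values were not used either. The annotation release behind the counts could not be settled, so coordinates are given only for RefSeq promoters (GRCm38.p6). Salmon divides reads among near-identical genes by estimation.

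The filterByExpr function of edgeR 4.0.16 (R 4.3.3; minimum count 10) retained 17122 genes out of 19574. After TMM scaling, 1 robust quasi-likelihood model of the 4 groups without a block was fitted, with Benjamini-Hochberg adjustment. Tumor was compared with adjacent normal tissue in each genotype and Il23rΔTreg with WT in each tissue; the difference in tumor effect was called on adjusted p alone. The steps were tested on simulated data. No libraries were identical. Replicates are separate mice.

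Alternatives were DESeq2 1.42.0, limma 3.58.1 on log2 CPM (prior count 3), 3 other scalings, no filter, a stricter filter (over 1 CPM in at least 3 libraries), no fold limit, only the groups compared, no *Rn18s*, a block for mouse, and omission of each mouse or of the WT tumor library of mouse2988. Mouse numbers in the titles pair tumor and adjacent normal tissue of an animal, although the cage number of mouse2901 differs between its libraries. Across genes, paired libraries' deviations from their group means correlated from -0.279 to 0.346.

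Members and lists were chosen with earlier results of these data known. Members named were, per superfamily, up to 5 calls in each direction and genotype by adjusted p, the 3 with most counts, and calls between genotypes (the 3 with the smallest p where there was none); of partner lists, all calls up to 5, otherwise 3 in each direction. Others were singled out after their values were seen, among them *Cyp2a5* and *Cyp2f2*.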

Additional observations from a re-analysis of the deposited data

Results flagged for a closer look

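Of 80 groups of 5 samples examined, 5 had a sample set far apart from the rest. By chance, about 1 in 20 independent groups of normally distributed values would have one. The groups examined share libraries and CPM can be skewed, so that rate is only a rough guide. *Cyp11a1* had 2.46 CPM in the Il23rΔTreg tumor of mouse2901, against 0.572 to 0.986 CPM in the other 4 tumors. *Sult1d1* had 163 CPM in the Il23rΔTreg adjacent normal sample of mouse2903, against 66.2 to 87.4 CPM in the others. The other such samples were all from mouse2904 and in Ugt1a genes, which share exons: *Ugt1a6a* with 9.46 CPM in its tumor, against 2.51 to 4.27 CPM in the other tumors, *Ugt1a2* with 2.25 CPM in its adjacent normal sample, against 0 to 0.561 CPM, and *Ugt1a6b* with 4.52 CPM in the same sample, against 1.12 to 2.04 CPM.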

How the results depend on the processing

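Counts of members called in tumors kept within 1.5 times their value relative to adjacent normal tissue under every alternative but 1: without mouse2990, 27 members in place of 42 fell in WT tumors. Leaving out each mouse gave 27 to 42 members lower and 5 to 7 higher in WT mice and 43 to 47 lower and 6 to 7 higher in Il23rΔTreg mice. Between Il23rΔTreg and WT tumors, DESeq2 called 5 members lower and 2 higher, the mouse as a block called 2 lower (*Cyp4f14* and *Cyp11a1*), scaling by library size only and the fit without a filter called 0, leaving out each mouse gave 0 to 2 (only *Gstt1* without mouse2990), and leaving out the tumor library of WT mouse2988 gave 0. The block (correlation within mice 0.127) changed no other count of calls by over 1.5 times. Scaling by library size only moved the median of all genes by up to 0.284 on the log2 scale between Il23rΔTreg and WT tumors, so differences between genotypes are relative to that choice. Over 72 values of 40 named members and 19 alternatives, 1316 kept direction and side of the threshold, 28 values of 8 members were no longer called and 4 changed sign. The changes of sign were uncalled values in WT mice: *Gsto1* with 0.19 ran from -0.12 (without mouse2988) to 0.46 (without mouse2989) and had -0.09 without the tumor library of mouse2988, and *Gstp1* with 0.21 ran from -0.32 to 0.71 and had -0.33. The cause was not tested. Genes under 1 CPM rest on few counts, and 3 mice limit the WT comparisons.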

Other observations

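*Cyp2a5*, which oxidizes coumarin and nicotine in the mouse, lies in a row of genes with *Cyp2f2* on chromosome 7, with *Cyp2a22* and *Cyp2a12* between them, of which *Cyp2a12* was called lower in the tumors of both genotypes. *Cyp2a5* had 0.407 CPM in the Il23rΔTreg tumor of mouse2901 and 2.76 CPM in that of mouse3883, and no count in the other 3 Il23rΔTreg tumors or in any WT tumor. Both mice also had the highest *Cyp2f2* levels among all tumors, 27.9 and 61.2 CPM, but mouse2904, with 12.8 CPM of *Cyp2f2* in its tumor, had no *Cyp2a5* count there. In adjacent normal tissue *Cyp2a5* had 0.0216 CPM in mouse2901 and 0.387 CPM in mouse3883, against 0 in the other Il23rΔTreg mice, and at most 0.0269 CPM in WT mice. The difference between tumors was not called (adjusted p = 0.22, edgeR), and the pattern was noticed after the values were seen.

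Markers of other cell types in the tissue moved too. Of 5 T cell markers in the table, *Cd4* fell in Il23rΔTreg tumors and 4 rose in WT tumors relative to adjacent normal tissue, and all 5 were called lower in Il23rΔTreg than in WT tumors. Of 8 macrophage markers, 3 fell in Il23rΔTreg tumors, *Fcgr1* rose in WT tumors, and 4 were called lower in Il23rΔTreg than in WT tumors. Fibroblast markers changed little, with *Lum* and *Dpt* lower in Il23rΔTreg tumors and *Lum* in WT tumors, of 8. Of 7 hepatocyte markers 3 passed the filter, and *Alb* rose while *Ttr* fell in both genotypes. The adipocyte gene *Fabp4* and, of 6 posterior Hox genes, *Hoxd12* were called in Il23rΔTreg mice, lower and higher in this order. The part of these cells in the results for detoxification genes was not tested.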
